A study of Mus musculus with 6 samples.

Results

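The 10 genes described here handle heme and iron in the cell: heme oxygenase 1 (Hmox1), the light and heavy ferritin chains (Ftl1, Fth1), the iron exporter ferroportin (Slc40a1), the divalent metal transporters Slc11a1 and Slc11a2, the transferrin receptor (Tfrc), the transporter Flvcr1, iron regulatory protein 2 (Ireb2) and the ferritin receptor Ncoa4. They were taken by gene name from the deposited table. Each name matched 1 of 55487 gene rows, and all 10 passed the filter on low counts that 14478 genes passed.

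RNA came from macrophages grown out of the bone marrow of Balb/c mice, wild type, female and aged 6 to 12 weeks. Both groups were grown for 8 days with 20% medium conditioned by L929 fibroblasts and were then polarized for 24 hours towards the alternative (M2) state with IL-4 and IL-13, each at 10 ng/mL. The NP group (3 libraries) then received poly(lactide-co-glycolide) nanoparticles at 200 µg/mL for 24 hours, and the PBS group (3 libraries) the vehicle. The treatment label of the NP samples reads PEMA, a word that the sources used here do not explain, and no source says whether libraries of a group came from separate mice or cultures, so p-values measure a spread that may be technical.

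Macrophages take up iron bound to transferrin through Tfrc, release iron from the heme of engulfed red cells with Hmox1, store it in a shell built of ferritin heavy and light chains, and export it through ferroportin. Iron regulatory proteins sense the free iron of the cytosol. When iron is scarce they bind a hairpin, the iron-responsive element, in messenger RNAs: bound near the start of the message they block translation, and bound behind the stop codon of Tfrc they protect the message from decay. Hmox1 and both ferritin genes are also known targets of the activator NRF2 (Nfe2l2) and the heme-sensing repressor BACH1.

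Total counts ran from 41974957 to 69450411 per library, the 3 NP libraries were the deepest, and 3 counts equalled 0.0432 to 0.0715 CPM, the count scaled to the depth of the library. The summed level of 10 macrophage markers was 12564 to 12972 CPM in PBS and 9919 to 11046 CPM in NP. By the call rule given below, 7 of the 10 markers were lower and 1 higher. Of all tested genes, 21.4% were lower and 19.8% higher by that rule. Of 12 erythroid markers, from the marrow cells richest in iron and heme genes, 11 had a row, their sum was 0.267 to 0.381 CPM in PBS and 0.115 to 0.278 CPM in NP, and Hbb-bs, Hbb-bt and Gata1 were at 0 counts. Sums of the neutrophil, fibroblast, lymphocyte and dendritic cell lists stayed at or below 6.05 CPM in every library, with 2 of 4 tested dendritic cell markers, 1 of 3 neutrophil markers and 1 of 5 fibroblast markers higher in NP and 2 fibroblast markers lower. The part of these cells in the results was not tested. Summed olfactory and vomeronasal receptor counts set PBS 2 (138 CPM) and PBS 3 (153 CPM) apart from the remaining libraries (9.70 to 12.5 CPM), so the results are also given with PBS 1 as the only PBS library. In bulk RNA, fewer cells of a type and less RNA per cell cannot be told apart.

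Nanoparticle-treated macrophages had more messenger RNA of heme oxygenase 1, of both ferritin chains, of Slc11a1, Slc11a2 and Flvcr1 and of Ncoa4, and less of the transferrin receptor and, by a small margin, of Ireb2. The call rule was an adjusted p under 0.05 in limma voom, fitted over all tested genes. By it 7 of the 10 genes rose, 2 fell and 1, Slc40a1, was not called, while 41.2% of all tested genes were called, 19.8% as higher and 21.4% as lower. In the same 9 genes no NP library overlapped a PBS library, as was the case for 53.3% of tested genes. Ireb2 kept its call in only 1 of 6 fits that each left out 1 library. The median log2 fold change (NP minus PBS) of the 10 genes was 0.30, beside 0.00 over all tested genes, and the median size without regard to sign was 0.39, beside 0.16. The changes ran from -0.78 in Tfrc to 0.89 in Hmox1, and no gene of the 10 reached a 2-fold change.

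**Figure D1:**
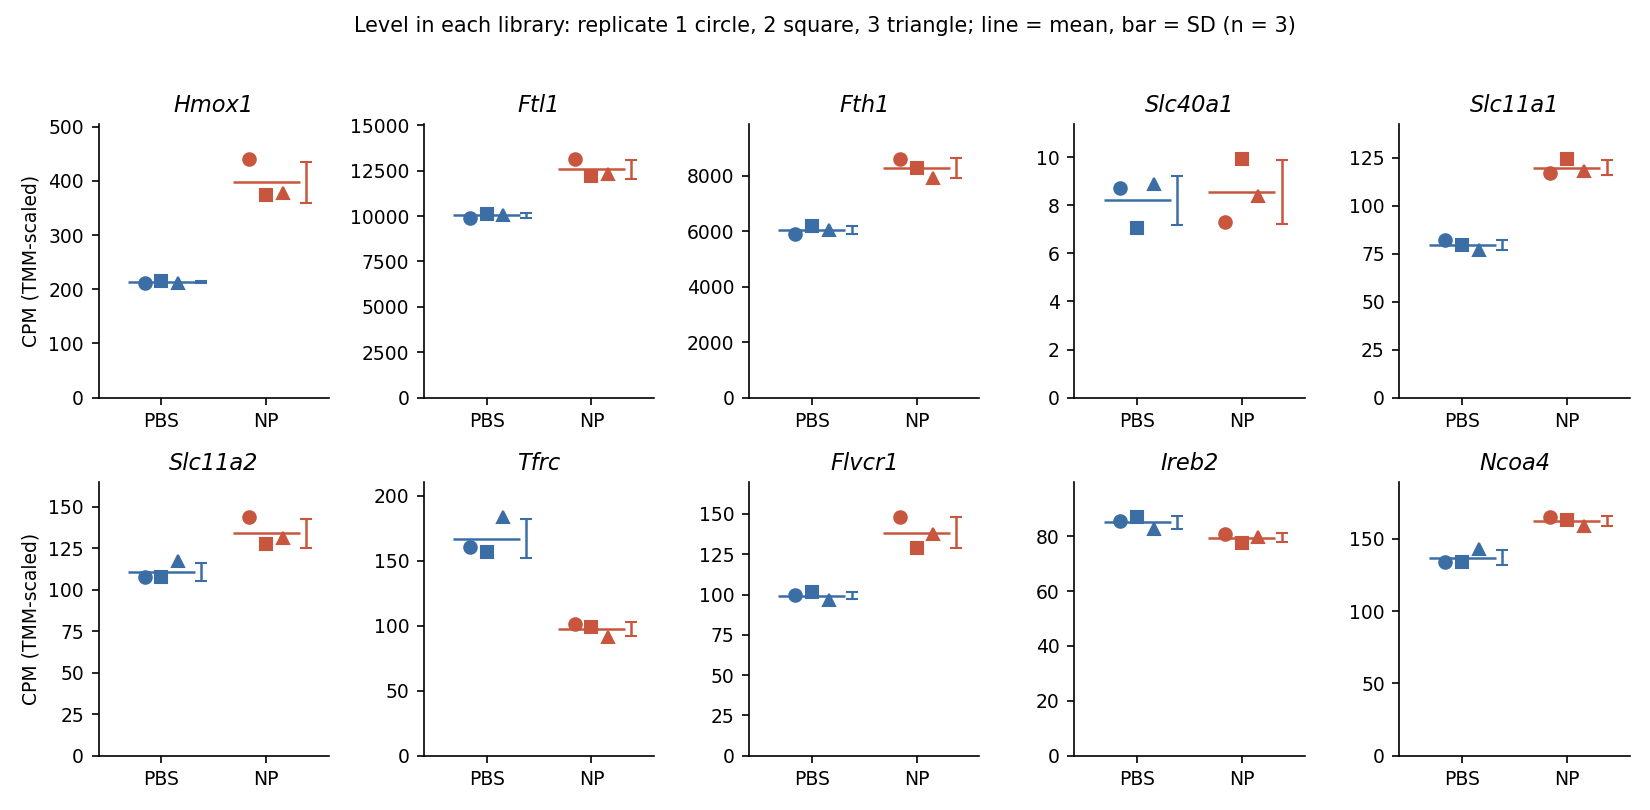
Level of each gene in the 6 libraries, in CPM scaled by the trimmed-mean (TMM) factors, with PBS in blue and NP in red, the group mean as a line and the SD as a bar (n = 3 each); every axis starts at 0. The groups are apart in 9 of the 10 genes, with Tfrc and Ireb2 lower in NP, and overlap in Slc40a1, at 7.03 to 9.94 CPM.

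The annotated untranslated regions (UTRs) of coding transcripts (GENCODE M21, build GRCm38) were searched on the transcribed strand for a hairpin with the core of an iron-responsive element: a C, 5 bases, the loop CAGTGN, and 5 bases that pair with the first 5 by A-T, G-C or G-T. Of 12298 tested coding genes, 24 (0.195%) held such a match in a 5′ UTR, and Fth1, Ftl1 and Slc40a1 were 3 of these. In a 3′ UTR 96 genes (0.781%) held one, with Tfrc the only 1 of the 10 genes here. The sequences are shown because they are the sites through which iron regulatory proteins are known to act on these messages. Each is written 5′ to 3′ with 5 more bases on either side and the loop in capitals, followed by its place in the genome.
Fth1: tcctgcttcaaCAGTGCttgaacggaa, chr19:9982733-9982759, plus strand, 5′ UTR
Ftl1: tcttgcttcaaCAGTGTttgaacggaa, chr7:45459780-45459806, minus strand, 5′ UTR
Slc40a1: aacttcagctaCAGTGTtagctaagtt, chr1:45925466-45925492, minus strand, 5′ UTR
Tfrc, match 1: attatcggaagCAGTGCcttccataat, chr16:32631220-32631246, plus strand, 3′ UTR
Tfrc, match 2: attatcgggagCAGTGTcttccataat, chr16:32631599-32631625, plus strand, 3′ UTR
Tfrc, match 3: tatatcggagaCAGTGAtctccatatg, chr16:32631664-32631690, plus strand, 3′ UTR
Tfrc, match 4: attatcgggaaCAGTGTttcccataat, chr16:32631711-32631737, plus strand, 3′ UTR

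Without those added bases, the match began in the ferritin messages at base 93 (Fth1) and base 84 (Ftl1) of the transcript, and in Slc40a1 at base 96, each before the start codon. In Tfrc the 4 matches began 892, 1271, 1336 and 1383 bases behind the coding sequence. The 5 bases next to the core, which the search did not ask to pair, paired at all 5 positions in Slc40a1 and in each Tfrc match, and at 4 of 5 in Fth1 and Ftl1. The search does not cover hairpins with a bulge in the upper stem, and it says nothing about binding. The genes that share the 5′ match did not share a value: the log2 fold change was 0.45 for Fth1, 0.32 for Ftl1 and 0.03 for Slc40a1, and Tfrc with the 3′ matches had -0.78. A 5′ element is known to act on translation, which message counts do not measure, and the part of the elements in these values was not tested.

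**Figure D2:**
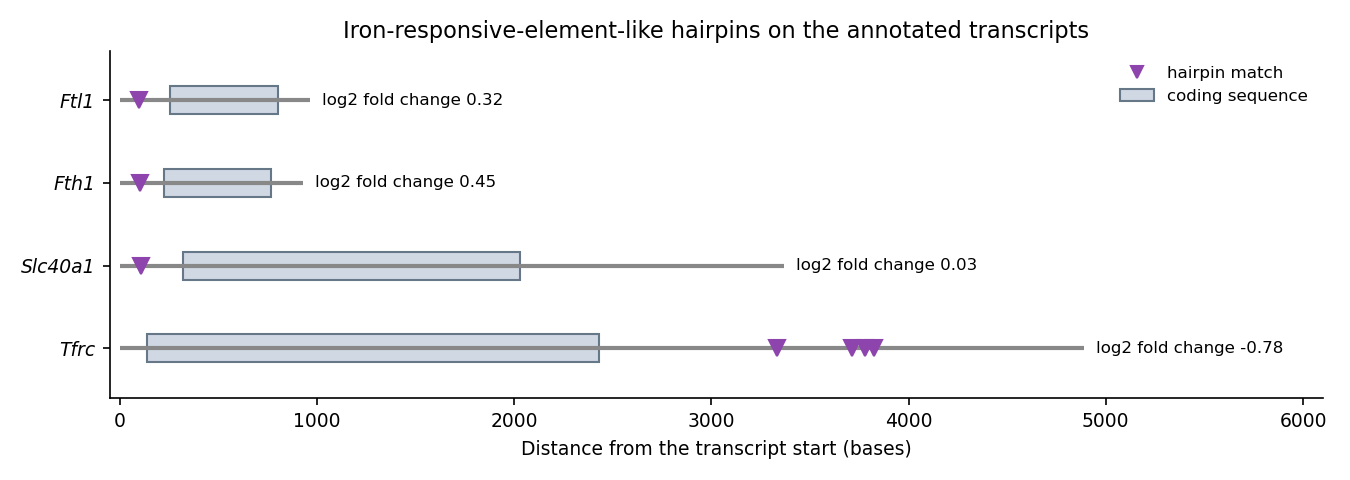
Transcripts drawn to scale from their start in bases, with the coding sequence as a box, hairpin matches as triangles and the gene's log2 fold change (NP minus PBS) at the right. The single match of Ftl1, Fth1 and Slc40a1 lies before the box and the 4 matches of Tfrc lie behind it.

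Ferritin was among the most abundant messages in these cells. Ftl1, the light chain that helps iron form a mineral core inside the shell, lies on chromosome 7 at 45457944 to 45459884 (minus strand). It had 9891, 10133.5 and 10071 CPM in the PBS libraries, in order, and 13167, 12216 and 12321.5 CPM in the NP libraries. All NP libraries were above all PBS libraries, with NP 1 the highest. The mean was 10032 ± 126 CPM in PBS and 12568 ± 521 CPM in NP (SD, n = 3 each), a log2 fold change of 0.32 (SE 0.04, limma adjusted p = 0.000175), or 25.2% more.

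Fth1, the heavy chain with the ferroxidase site that oxidizes incoming iron, lies on chromosome 19 at 9980598 to 9985098 (plus strand). Its values were 5916, 6190 and 6039 CPM in PBS and 8621, 8291 and 7928 CPM in NP. The lowest NP library was above the highest PBS library. The log2 fold change was 0.45 (SE 0.04, limma adjusted p = 3.88e-05), or 36.8% more. Together the chains took 1.63% ± 0.0299 of all counts in PBS and 2.06% ± 0.0645 in NP (SD, n = 3 each).

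The balance of heavy to light chain was also read within each library. Per length (counts per kilobase of annotated exon), the ratio of Fth1 to Ftl1 was 0.231, 0.236 and 0.232 for the PBS libraries and 0.253, 0.262 and 0.249 for the NP libraries. The ratio was higher in all 3 NP libraries. Its size depends on the length used. All annotated exons together are longer for Fth1 than for Ftl1, while the transcripts with the 5′ match are of similar length. Without a length, the ratio of counts was 0.603 in PBS and 0.659 in NP (means), again higher in all 3 NP libraries. The per-length values thus give the direction of the shift and not the amount of heavy chain beside light chain. A two-sided exact permutation test gave p = 0.1 for either ratio (n = 3 each), which is the smallest p this design allows. Pseudogene rows of the light chain (Ftl1-ps1, Ftl1-ps2, Ftl2-ps) held 1.12% ± 0.0224 of the Ftl1 counts in PBS and 1.12% ± 0.0328 in NP (SD, n = 3 each), and those of the heavy chain at most 0.00089% of the Fth1 counts in any library. With gene and pseudogene counts summed, both ferritin genes stayed called. Rows this small could hardly move the calls, so that fit does not test how reads were divided between the copies.

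Ncoa4 encodes the receptor that carries ferritin to the lysosome, where the shell is broken down and its iron released. The gene, on chromosome 14 at 32159865 to 32179855, had 134, 134 and 143 CPM in PBS and 165, 163 and 159 CPM in NP. Its libraries were tight in both groups and did not overlap. The log2 fold change was 0.25 (SE 0.04, limma adjusted p = 0.000609), the smallest of the 7 increases.

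Hmox1, the inducible enzyme that splits heme into biliverdin, carbon monoxide and iron, had the largest change of the 10 genes. It lies on chromosome 8 at 75093621 to 75100589 (plus strand). PBS 1 to 3 had 212, 216 and 212 CPM and NP 1 to 3 had 441, 374 and 377 CPM. The PBS libraries were almost alike, and NP 1 stood above the other NP libraries. The mean went from 213 ± 2.06 to 397 ± 37.8 CPM (SD, n = 3 each), a log2 fold change of 0.89 (SE 0.06, limma adjusted p = 1.19e-05). In size this change stood at the 93.9th percentile of all tested genes.

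The constitutive enzyme Hmox2 catalyses the same step and was not called, with a log2 fold change of -0.03 (limma adjusted p = 0.579). Per length, Hmox1 stood at 3.04, 3.15 and 3.05 times the level of Hmox2 in PBS and at 6.58, 5.27 and 5.75 times in NP. The 2 groups of ratios did not overlap (two-sided exact permutation p = 0.1, n = 3 each, the smallest possible).

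Over the 6 libraries, the genes whose log2 levels relative to the PBS mean lay nearest to those of Hmox1 were Pdpn, Ccrl2, Cxcl14, Smim3 and Nlrc3, of 9590 genes compared at a mean of at least 5 CPM. Their root mean square distance from Hmox1 was 0.0477 (Pdpn) to 0.0561 (Nlrc3) on the log2 scale, and their log2 fold changes were 0.85 to 0.92. All 6 libraries serve both for the distance and for the fold changes, so the likeness is a description.

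Flvcr1, first described as an exporter of heme and also known as a choline transporter, lies on chromosome 1 at 191005847 to 191026158. Its level was 99.9, 101 and 96.9 CPM in PBS and 148, 129 and 138 CPM in NP. Each NP library exceeded each PBS library. Flvcr1 rose by 0.48 on the log2 scale (SE 0.05, limma adjusted p = 9.48e-05), or 39.1% more.

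Of the genes for transferrin-bound iron, Tfrc fell and Slc11a2 rose. Tfrc, the receptor that brings transferrin iron into the cell, lies on chromosome 16 at 32608920 to 32632794. It had 160, 156 and 184 CPM in PBS and 101, 98.9 and 91.0 CPM in NP. PBS 3 was the highest of all libraries and the groups were far apart. From a mean of 167 ± 14.8 to 97.1 ± 5.36 CPM (SD, n = 3 each), Tfrc fell by 0.78 on the log2 scale (SE 0.06, limma adjusted p = 3.16e-05), a change of -41.7%. The receptor is known to be abundant in dividing cells, and Mki67, a marker of those cells named here after its values were seen, went from 659 ± 10.4 to 290.0 ± 56.1 CPM; its part in the result was not tested.

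The paralogs Slc11a1 and Slc11a2 both rose. Slc11a1 (NRAMP1) moves divalent metals across the membrane of phagosomes and late endosomes of macrophages, and Balb/c is among the mouse strains known to carry its loss-of-function allele, so its message is measured here in cells with impaired protein. It lies on chromosome 1 at 74375195 to 74386062. PBS 1, 2 and 3 had 82.1, 79.8 and 76.8 CPM, and NP 1, 2 and 3 had 117, 125 and 118 CPM. The spread within each group was small beside the gap between them. Slc11a1 rose by 0.59 on the log2 scale (SE 0.04, limma adjusted p = 1.19e-05), or 50.7% more, the second largest increase of the 10 genes.

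Slc11a2 (DMT1), on chromosome 15 at 100387898 to 100425072, carries iron out of the endosome after transferrin has released it. Its values were 107, 108 and 117 CPM in PBS and 144, 127 and 131 CPM in NP. PBS 3 came nearest to the NP libraries without reaching them. Slc11a2 rose by 0.28 on the log2 scale (SE 0.05, limma adjusted p = 0.00255). Some Slc11a2 messages end in an iron-responsive element and others do not, and gene-level counts cannot tell them apart. Per length, Slc11a1 stood at 1.31, 1.27 and 1.13 times Slc11a2 in PBS and at 1.40, 1.68 and 1.55 times in NP, with no overlap (two-sided exact permutation p = 0.1, n = 3 each, the smallest possible).

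Slc40a1, the only known exporter of free iron from mammalian cells, was low and was not called. The gene lies on chromosome 1 at 45908068 to 45926523 (minus strand), and the libraries held 300 to 600 counts of it. It had 8.71, 7.03 and 8.88 CPM in PBS and 7.32, 9.94 and 8.40 CPM in NP. The groups overlapped, and PBS 2 and NP 2 were the lowest and the highest library. The log2 fold change was 0.03 with a 95% interval from -0.25 to 0.31 (limma adjusted p = 0.854). Without PBS 2 and NP 2 the value was -0.17 (limma adjusted p = 0.182), so its direction rested on these libraries.

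Ireb2 (IRP2), the iron regulatory protein that is degraded when iron is plentiful, lies on chromosome 9 at 54863789 to 54912530. It had 85.5, 87.2 and 82.5 CPM in PBS and 80.9, 77.6 and 79.8 CPM in NP. The gap between the groups was narrower than the spread within PBS. The log2 fold change was -0.10 (SE 0.03, limma adjusted p = 0.0434). The call was lost without PBS 1, PBS 2, NP 1, NP 2 or NP 3 (limma adjusted p = 0.074 to 0.159) and kept only without PBS 3. With PBS 1 as the only PBS library it was lost as well (adjusted p = 0.155). For the other 9 genes no library decided the call, and the 7 increases and the fall of Tfrc were also called with PBS 1 alone in its group.

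**Figure D3:**
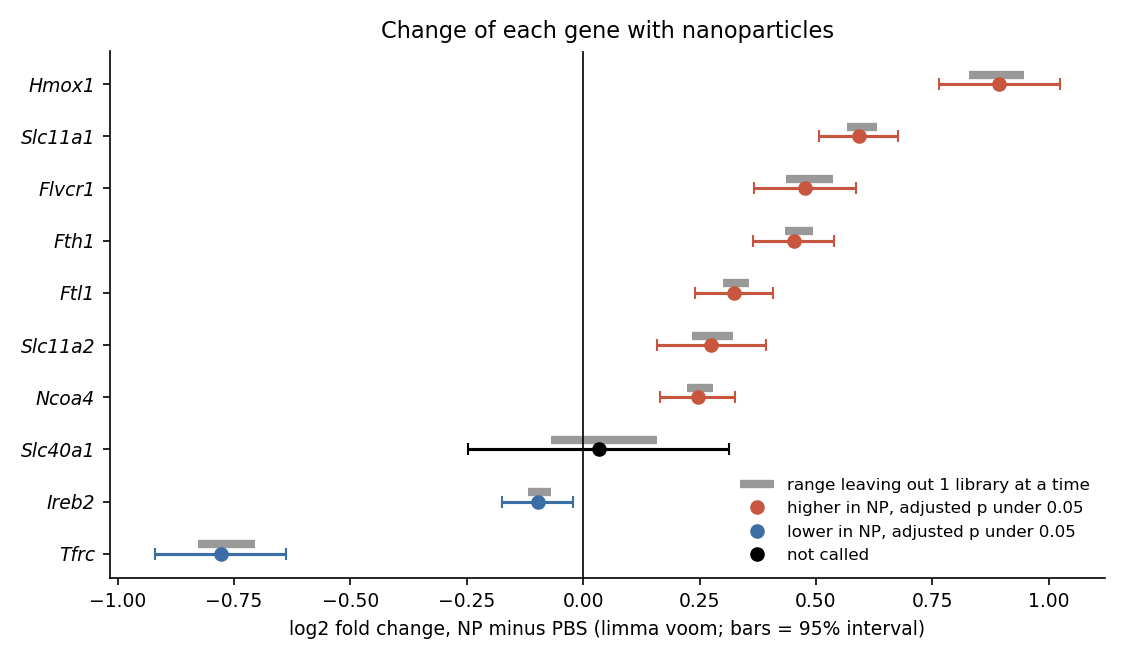
Log2 fold change (NP minus PBS, limma voom) of each gene with its 95% interval, in red for genes called higher, blue for genes called lower and black for Slc40a1, with the range over fits that each leave out 1 library in grey. Hmox1 at 0.89 and Tfrc at -0.78 lie farthest from 0, and the interval and range of Slc40a1 span 0.

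Library names number PBS 2 and NP 2 as 13 and 12 and the other 4 libraries as 4 to 8, without saying what the numbers stand for. The 8 genes called in every fit kept their direction on both sides of that divide. Between PBS 2 and NP 2 alone the log2 difference in CPM was 0.79 for Hmox1, 0.42 for Fth1, 0.27 for Ftl1 and -0.66 for Tfrc, and between the other libraries it was 0.94, 0.47, 0.35 and -0.84 in the same order. Slc11a1 had 0.64 and 0.57, Flvcr1 0.35 and 0.54, Slc11a2 0.24 and 0.29, and Ncoa4 0.28 and 0.23. Slc40a1 turned, with 0.50 between PBS 2 and NP 2 and -0.17 between the others.

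Levels of the 10 genes were set in order per length, as counts per kilobase of exon scaled to the same sum in every library. Ftl1 stood at 25395 ± 281 in PBS and 31185 ± 1166 in NP (SD, n = 3 each), where it ranked 1 of all genes in both groups. Fth1 followed at 5914 ± 134 and 7935 ± 262, then Hmox1 at 413 ± 6.20 and 755 ± 67.7. The other genes ranged from Slc11a1, at no more than 111 in any library, down to Slc40a1 at 3.09 ± 0.377 and 3.16 ± 0.484. In PBS the order after Hmox1 was Tfrc, Slc11a1, Flvcr1, Slc11a2, Ncoa4, Ireb2 and Slc40a1. In NP the order was Slc11a1, Flvcr1, Slc11a2, Ncoa4, Tfrc, Ireb2 and Slc40a1, so that Tfrc went from place 4 to place 8. No neighbours in either order overlapped in their libraries, although some lay close, as did Flvcr1 and Slc11a2 in PBS at a ratio of 1.10 and Ncoa4 and Tfrc in NP at 1.10. The middle of the order depends on the length used. With the longest annotated transcript in place of all exons, which shortens Slc40a1 from 9000 to 3928 bases and Ncoa4 from 9365 to 4733, Ncoa4 stood at 76.4 in PBS, above Slc11a2 (66.1) and Flvcr1 (64.9). By that length the libraries of Slc11a1 and Ncoa4 and of Slc11a2 and Flvcr1 overlapped in PBS, and those of Ncoa4 and Flvcr1 and of Flvcr1 and Slc11a2 in NP. The first 4 places in PBS, the first 4 in NP, the last 2 in both and the place of Tfrc did not differ between the lengths.

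**Figure D4:**
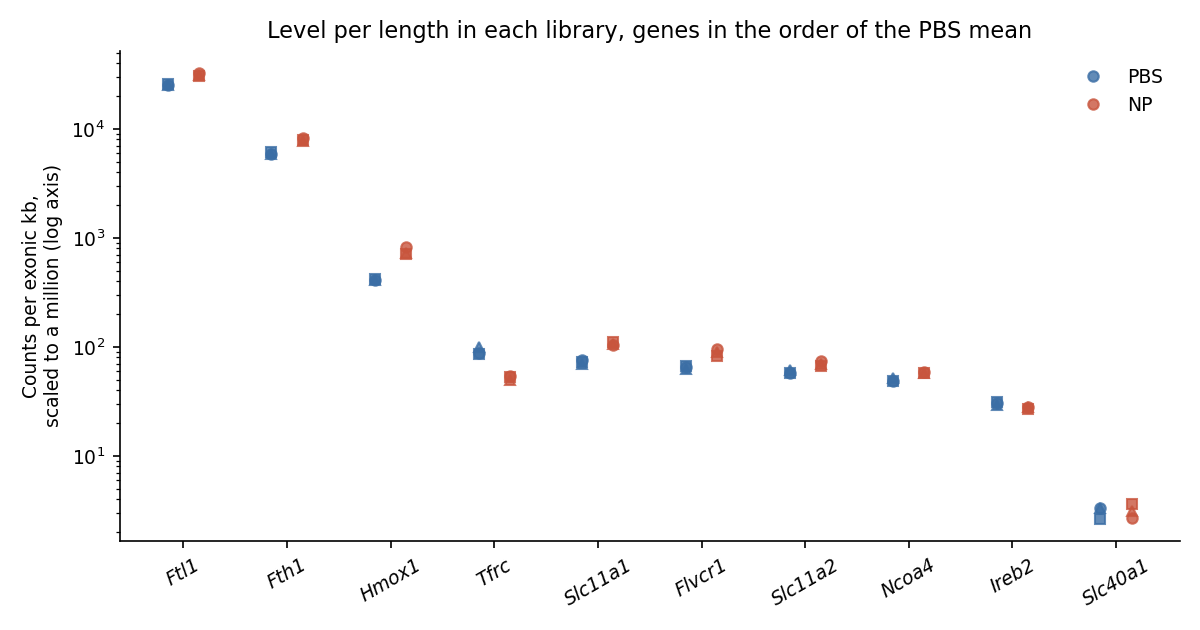
Counts per kilobase of annotated exon, scaled to the same sum in every library, on a log axis, with 1 point per library (PBS blue, NP red) and genes in the order of the PBS mean. Ftl1 lies near 25395 in PBS, Slc40a1 near 3.09, and Tfrc is below Ncoa4 in NP only.

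A list of 71 other genes of iron and heme handling was read from the same fit, and 62 of them were tested. Of these 12 were higher and 11 lower, which is 37.1% called, beside 41.2% of all tested genes, and their median log2 fold change was 0.03.

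Among genes of heme breakdown and transport, 4 of 12 rose and 4 fell. Cd163, the receptor for hemoglobin bound to haptoglobin, fell from 2.20 ± 0.317 to 0.851 ± 0.10 CPM (log2 fold change -1.37, SE 0.17, limma adjusted p = 2.81e-04). Lrp1, which takes up heme bound to hemopexin among many other ligands, had -0.30 and the transporter Abcg2 had -0.35. Slc46a1, a folate transporter that also carries heme, rose by 0.53, and Slc48a1, which brings heme out of the phagolysosome, by 0.22. The biliverdin reductases, which act after heme oxygenase, split: Blvra was lower at -0.23 and Blvrb higher at 0.18.

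Of 8 enzymes of heme synthesis 1 was called, Fech, which inserts the iron into heme, at 0.10 (SE 0.03, limma adjusted p = 0.0411). Alas1, the first and rate-limiting step, had 66.6 ± 2.60 CPM in PBS and 66.5 ± 1.39 CPM in NP (SD, n = 3 each).

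Of 7 tested genes of iron uptake and reduction, 2 rose and 1 fell. Trf, transferrin itself, fell from 37.2 ± 2.71 to 24.9 ± 1.94 CPM (-0.59, SE 0.07, limma adjusted p = 1.63e-04). Steap3, a reductase of endosomal iron, rose by 0.30, and Mcoln1, a channel that releases iron from late endosomes and lysosomes, by 0.14. In the list of export and its hormone only Hfe and Cp were tested. Hfe, which binds the transferrin receptor and is mutated in hereditary hemochromatosis, fell from 41.1 ± 1.25 to 22.5 ± 1.36 CPM (-0.87, SE 0.05, limma adjusted p = 7.79e-06). Hamp, which encodes the hormone hepcidin, had 1 count in PBS and 0 in NP. Of 4 tested genes for storage and iron chaperones 1 was called, Pcbp2, an iron chaperone and RNA-binding protein, at -0.18.

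Of 11 regulators 3 rose and 2 fell. Aco1 (IRP1), the other iron regulatory protein, rose by 0.15 (SE 0.03, limma adjusted p = 0.00631), from 89.7 ± 2.20 to 99.2 ± 2.00 CPM. Fbxl5, the ubiquitin ligase subunit that marks IRP2 for degradation when iron is present, was not called (-0.07, limma adjusted p = 0.145), nor was Bach1 (-0.01, limma adjusted p = 0.878). Nfe2l2 had 308 ± 11.3 CPM in PBS and 268 ± 34.1 CPM in NP and was not called (-0.21, limma adjusted p = 0.0592). Keap1, which holds NRF2 back, was lower (-0.19, limma adjusted p = 0.00481). Mafk, a small MAF protein that pairs with NRF2 or BACH1 on DNA, was higher (0.38, SE 0.06, limma adjusted p = 8.76e-04). Skp1, a ubiquitin ligase subunit listed under its older name Skp1a, had -0.16. Activity of these regulators is set largely in the protein and was not measured.

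Of 18 genes of mitochondrial iron and iron-sulfur clusters, 2 were higher and 2 lower. Slc25a37 (mitoferrin 1), an importer of iron into mitochondria, rose by 0.19 and Isca1, an iron-sulfur cluster assembly factor, by 0.20. Nfs1, the cysteine desulfurase that supplies the sulfur, had -0.10 and Nubp1, a cytosolic cluster scaffold, had -0.16.

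**Figure D5:**
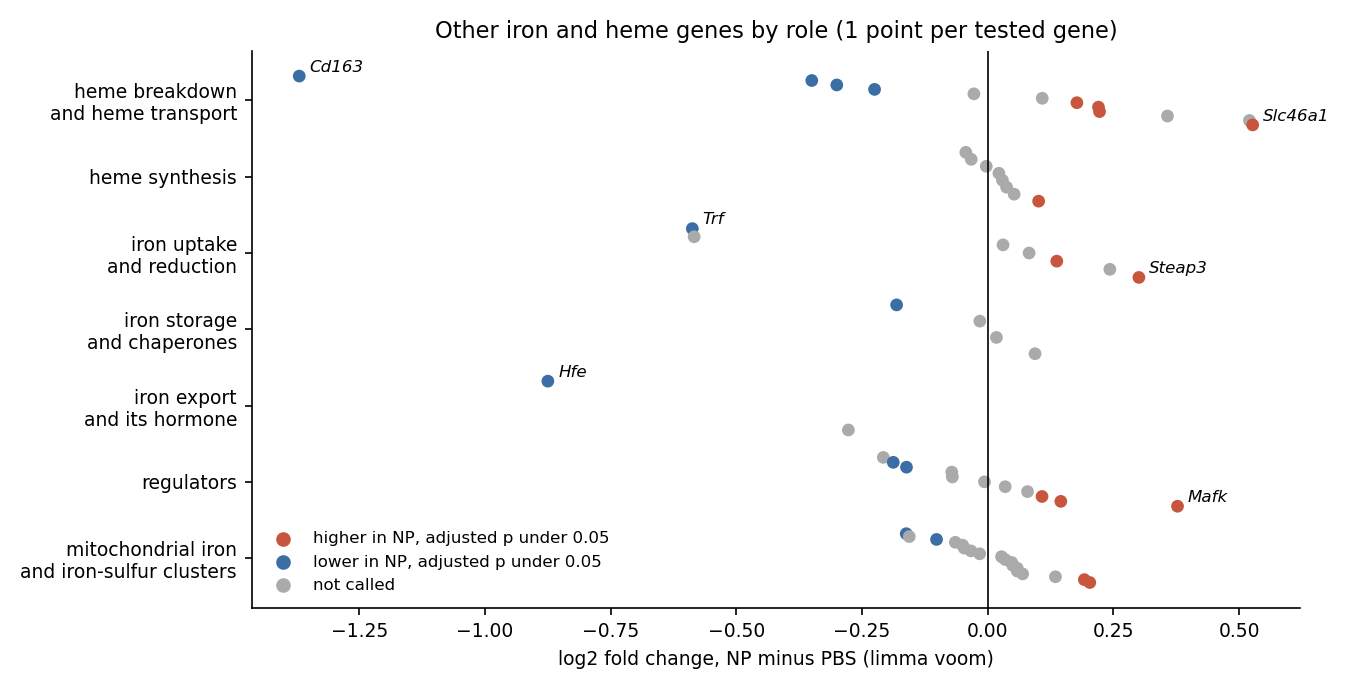
Log2 fold change (NP minus PBS, limma voom) of 62 tested iron and heme genes outside the 10, 1 point each, in rows by role, with called genes in red (higher) or blue (lower) and the rest in grey. Heme synthesis genes lie between -0.04 and 0.10, while Cd163 at -1.37, Hfe at -0.87 and Trf at -0.59 lie farthest to the left among called genes.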

How the data were processed

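Per the submitters' processing notes, the authors used cutadapt 2.3, FastQC 0.11.8, STAR 2.7.8a, RSEM 1.3.3 and MultiQC 1.7 with build GRCm38. The annotation release is not given in the sources used here, nor is the strand setting, so overlapping genes cannot be told apart. The deposited table holds expected counts per gene, all whole numbers, from libraries of polyadenylated RNA read as pairs of 151 bases. RSEM divides reads between similar genes, so ferritin values carry some uncertainty. Its quoted, space-separated layout kept the automatic unit check from reading it, so the unit rests on the labels and values. Of 55491 rows, 4 reporter constructs were left out. 55227 rows matched GENCODE M21, which gave coordinates and lengths.

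limma 3.58.1 (R 4.3.3) voom was fitted on group alone (3 libraries each, 4 residual degrees of freedom), with TMM factors, an offset of 0.5 and Benjamini-Hochberg adjustment. The filter asked for 0.171 CPM (10 counts at median depth) in 3 libraries and 15 counts in total. Single-gene CPM use TMM-scaled sizes. Marker and receptor sums use library totals. The script was tested on simulated data in which a far smaller share of genes changed than was called here. That test concerns the working of the script and not the calls in these data. Libraries of a group differed by more than sampling noise (chi-square per gene 6.08 to 19.7). The 95% intervals come from the limma fit, rest on the spread between libraries of a group and cover no other source of error.

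The members and gene lists were chosen with earlier results of these data known. All 10 genes are named. From the wider list, genes called without overlap are named, at most 4 per role, plus a fixed few. For Hmox1 the 5 nearest genes are named. Alternatives covered scaling, filters, model, a replicate block and left-out libraries.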

Additional observations from a re-analysis of the deposited data

How the results depend on the processing

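Across 16 alternative fits, Hmox1, Ftl1, Fth1, Slc11a1, Slc11a2, Flvcr1 and Ncoa4 were called higher and Tfrc lower in each, with log2 fold changes of 0.83 to 0.95 for Hmox1 and -0.84 to -0.71 for Tfrc. The fit with summed pseudogenes is a further one for the ferritin genes. The number of genes called lower among the 10 was 1 in place of 2 with the replicate block, with no low-count filter, with PBS 2 and NP 2 left out and with PBS 1 alone in its group, and 1 to 2 when 1 library was left out. Ireb2 was the gene lost, in 9 of 16 fits (adjusted p 0.0134 to 0.245 over all of them). Slc40a1 turned negative with library totals alone (-0.0023), with PBS 2 and NP 2 left out (-0.17), with PBS 1 alone in its group (-0.051), and in the fits that left out PBS 2 (-0.06) or NP 2 (-0.07), within a range of -0.07 to 0.16 over single libraries left out. With PBS 1 alone, where that library is assumed to vary like the NP group, 2972 genes were called, 1197 higher and 1775 lower, and among the wider iron list 6 were higher and 7 lower. All genes called lower numbered 1975 to 3850 with 1 library left out, the lowest without NP 3. With library totals in place of TMM factors 2280 genes were higher and 3653 lower, and in the wider list 8 and 14. With the longest transcript as length, the Fth1 to Ftl1 ratio was 0.283 in PBS and 0.309 in NP, and the Hmox1 to Hmox2 ratio 2.69 and 5.11. The replicate block called 5022 genes. Deviations from the group means correlated at -0.0899, -0.237 and -0.267 between same-numbered libraries. Between differently numbered libraries the correlations ran from -0.187 (PBS 1 with NP 3) to 0.426 (PBS 2 with NP 3). With 3 libraries a group these values are tied to each other, so they cannot tell whether the numbers pair the libraries. edgeR and DESeq2, listed as alternatives for a readable unit, were not run. Depth limits tested genes with few counts, such as Flvcr2 (26 counts in PBS and 48 in NP, SE 0.30, chosen after its values were seen). Not every untested gene had fewer counts. Steap2, also chosen after its values were seen, had 82 counts in PBS and 1 in NP and did not reach the filter level in 3 libraries. With 3 libraries a group no exact permutation test can go below 0.1.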
